A study of Mus musculus with 17 samples.

Results

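Conventional type 1 dendritic cells (cDC1) were taken from single-cell RNA libraries of mouse pancreatic tumours. A cell was a member when it held at least 2 UMIs (unique molecular identifiers, each standing for 1 captured RNA molecule) of Xcr1 and Clec9a together. It also had to hold no UMI of Cd3d, Cd3e, Cd3g, Cd79a or Siglech, fewer than 20 UMIs of C1qa, C1qb and C1qc together, and not 2 or more UMIs of both Ccr7 and Fscn1. These conditions keep out T cells, B cells, plasmacytoid dendritic cells, macrophages and migratory dendritic cells, in that order of genes. Of 18546 cells with at least 500 detected genes and at most 10% mitochondrial UMIs, out of 23150 deposited barcodes, 177 were members. The values of these 12 genes chose the cells, so their levels below are descriptions and were not tested.

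cDC1 depend on the transcription factors Irf8, Batf3 and Id2. They take up material from dying cells through the receptor Clec9a, present its peptides on MHC class I to CD8 T cells (cross-presentation), and are drawn to Xcl1-releasing lymphocytes through the chemokine receptor Xcr1. In tumours they are known as the dendritic cells that prime CD8 T cells and as a source of IL-12 and of the T-cell-attracting chemokine Cxcl9. PD-L1, encoded by Cd274, is a ligand of the inhibitory receptor PD-1 and is carried by many tumour leukocytes, dendritic cells and T cells among them.

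The series compares mice that differ in Cd274 in T cells, with 1 single-cell library per genotype. The library titled CD4Cre comes from CD4Cre mice, flWT_CD4Cre from PDL1 floxed/WT-CD4Cre mice, flfl_CD4Cre from PDL1 floxed/floxed-CD4Cre mice, flfl from PDL1 floxed/floxed mice without a named Cre, and WT from wild type. All carried an orthotopic pancreatic tumour, all are labelled as untreated, and CD45+ leukocytes were sorted 3 weeks after implantation. The sample labels call the material tumour-infiltrating T cells, while the design text speaks of sorted leukocytes. Cre was driven by the Cd4 promoter, which is active in developing T cells of both the CD4 and the CD8 lineage, and whether Cre acted in dendritic cells was not measured here. The sources used here do not give the number of mice per library or their ages. The 12 bulk T cell libraries among the 17 samples were not analysed here, and the single-cell libraries are named by their labels throughout. Where 5 values follow each other they stand in the order CD4Cre, flWT_CD4Cre, flfl_CD4Cre, flfl and WT, and levels are in CPM, the UMIs of a gene scaled by all UMIs summed over the cells of a class in 1 library.

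Several features of the libraries touch every result. The 3 Cre libraries name Cell Ranger 3.1.0 in their headers and list 31053 genes, while flfl and WT name no version and list 28692, so Cre genotype and file version cannot be told apart. The 3 Cre libraries share 817 to 1127 kept barcodes in each pair, against 0 to 12 in any other pair, and 16 of the 177 cDC1 have a barcode found in another library (4, 2, 8, 2 and 0). B cells, which do not make C1q, held a C1q UMI in 39.3%, 55.7%, 57.9%, 92.8% and 98.5% of cells, at median depths of 4905, 8705, 5859, 6405 and 8173.5 UMIs. The cDC1 numbered 14, 20, 23, 78 and 42 cells, with median depths of 6982, 16431.5, 24972, 20174.5 and 17998 UMIs and sums of 150333, 346946, 505585, 1508031 and 765800 UMIs.

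The members carried the genes that define cDC1 and were not used to choose them. Irf8, the lineage's transcription factor, stood at 1703, 2695, 2025, 2031 and 2007 CPM. Naaa, which encodes a lysosomal amidase long used as a cDC1 marker, stood at 1244, 1966, 1786, 1831 and 1852 CPM. Batf3, the partner factor, stood at 173, 245, 231, 251 and 206 CPM. All 3 genes were detected in every library, with the lowest level of each in CD4Cre, the library with the fewest cDC1 UMIs. Of 28 genes of a cDC1 list outside the rule, 1 was at 0 in flWT_CD4Cre and none in any other library, and their summed level was 7902, 11252, 9953, 10306 and 10764 CPM. Xcr1, which the rule used, was at 412, 709, 534, 386 and 399.6 CPM and Clec9a at 206, 251, 257, 215 and 195 CPM.

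Markers of other cell types were present at unequal levels, and the macrophage list had the largest sum of them in every library. A T cell list of 12 genes summed to 6.65, 40.4, 3.96, 53.7 and 44.4 CPM, with 11, 11, 11, 1 and 4 of its genes at 0. A macrophage list of 14 genes summed to 2594, 1228, 637, 1886 and 2749 CPM, with 4, 3, 4, 1 and 1 genes at 0. In CD4Cre 1 cell held 86.2% of the macrophage-list UMIs and in flWT_CD4Cre 1 cell held 54.2%, while the median cell of flfl and WT held 1.74 and 2.77 such UMIs per 1000 against 0.477 to 0.545 in the Cre libraries. B and plasma cell genes summed to 306, 37.5, 115, 414 and 760.0 CPM, monocyte genes to 825, 747, 471, 708 and 838 CPM and neutrophil genes to 46.6, 46.1, 37.6, 332 and 913 CPM. Natural killer cell genes summed to 6.65, 0, 5.93, 33.2 and 32.6 CPM, epithelial and stromal genes to 46.6, 31.7, 47.5, 103 and 210.2 CPM and red cell and platelet genes to 26.6, 11.5, 5.93, 8.62 and 60.1 CPM. The macrophage list was thus spread over cells in flfl and WT and concentrated in single cells in CD4Cre and flWT_CD4Cre.

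The cut at 2 UMIs ran through a gradient. The 144 members with 4 or more Xcr1 and Clec9a UMIs had 2179 CPM of Irf8 and 1901 CPM of Naaa. The 12 members with exactly 3 had 1255 and 1295 CPM, and the 21 with exactly 2 had 1344 and 1094 CPM. The 102 cells with a single UMI that met every other condition had 535 CPM of Irf8 and 281 CPM of Naaa. The cells just outside therefore held lower levels of both genes than those just inside, and more of Lyz2, a lysozyme gene of macrophages and monocytes (2124 CPM, against 294 CPM in the members with 2 UMIs, 1503 CPM in those with 3 and 464 CPM in those with 4 or more).

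cDC1 made up a small share of the sorted leukocytes in every library and a larger one in the 2 libraries without Cre. The share of kept cells was 0.276% in CD4Cre (exact 95% binomial interval 0.151 to 0.462), 0.528% in flWT_CD4Cre (0.323 to 0.814), 0.582% in flfl_CD4Cre (0.369 to 0.872), 2.73% in flfl (2.16 to 3.39) and 1.46% in WT (1.06 to 1.97). The intervals of the 3 Cre libraries overlapped each other, and those of flfl and WT lay above them and apart from each other. The intervals cover counting error only, and 1 library per genotype allows no test. Without the shared barcodes the shares were 0.260%, 0.776%, 0.620%, 2.67% and 1.47%, and the intervals of flWT_CD4Cre and WT then overlapped (0.460 to 1.22 and 1.06 to 1.98). With every cell thinned to 2000 UMIs, which leaves out 845, 977, 800, 0 and 0 shallower kept cells, the shares were 0.118%, 0.391%, 0.412%, 1.82% and 1.08%.

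The rule's own conditions moved these shares unequally. Among kept cells, 45, 43, 63, 195 and 109 held 2 or more Xcr1 and Clec9a UMIs, so 31.1%, 46.5%, 36.5%, 40% and 38.5% of them became members. In flfl 42 such cells, and in WT 16, were removed by a Cd3 UMI alone, and their Irf8 levels were 1925 and 2421 CPM, against 2031 and 2007 CPM in the members. Cd79a alone removed 29 in flfl and 18 in WT, with Irf8 at 2084 and 2305 CPM. When fewer than 3 Cd3 and fewer than 3 Cd79a UMIs were allowed in place of 0, a setting chosen after these values were seen, the shares became 0.315%, 0.528%, 0.582%, 5.49% and 2.62%. In CD4Cre 13 of the cells held a Siglech UMI, with Irf8 at 2188 CPM and Naaa at 16.1 CPM. Irf8 is also a plasmacytoid cell gene. With C1q UMIs limited to fewer than 5, the shares were 0.276%, 0.475%, 0.506%, 1.47% and 0.279%. Under that limit WT no longer lay above the Cre libraries, and B cells of WT held C1q most often of the 5, as given above.

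The mix of dendritic cells differed as well. cDC2, the conventional type 2 cells taken here by at least 2 UMIs of Cd209a and no Xcr1 or Clec9a UMI, numbered 20, 26, 47, 61 and 30 cells. Migratory dendritic cells, taken by at least 2 UMIs each of Ccr7 and Fscn1, numbered 215, 273, 212, 29 and 10, and plasmacytoid cells 14, 1, 12, 11 and 8. cDC1 were therefore 5.32% (2.94 to 8.77), 6.25% (3.86 to 9.49), 7.82% (5.02 to 11.5), 43.6% (36.2 to 51.2) and 46.7% (36.1 to 57.5) of these 4 classes. There were 15.4, 13.7, 9.22, 0.372 and 0.238 migratory cells for each cDC1, and 0.7, 0.769, 0.489, 1.28 and 1.40 cDC1 for each cDC2. As shares of kept cells the 2 classes went opposite ways. cDC1 were a larger share in flfl and WT, and the migratory class a smaller one, at 4.23%, 7.21% and 5.36% of kept cells in the Cre libraries and 1.014% and 0.349% in flfl and WT.

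**Figure D1:**
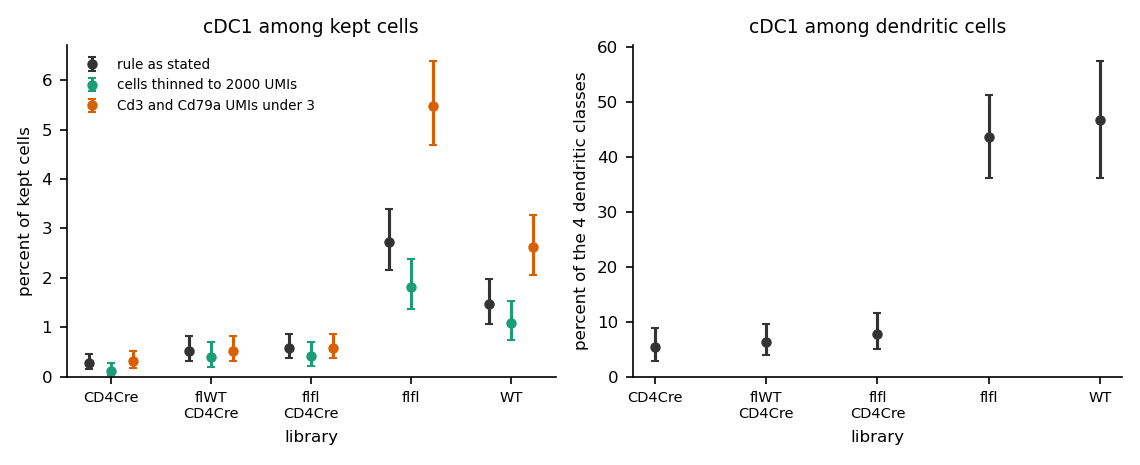
The left panel plots the percent of kept cells that were cDC1 in each library under the rule as stated, after thinning to 2000 UMIs per cell, and with Cd3 and Cd79a UMIs under 3, and the right panel plots the percent of the 4 dendritic classes. Bars are exact 95% binomial intervals for counting error in 1 library, and in both panels the points of flfl and WT lie above the 3 Cre libraries.

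cDC1 were next compared with the other dendritic cells of the same libraries. UMIs were summed per library and class and tested with edgeR, with the library as a block and 5 libraries on each side. Against cDC2, 508 of 5300 genes tested were higher in cDC1 (9.58%) and 495 were lower (9.34%) at an adjusted p under 0.05. Of all genes tested, 7.28% were called with levels that did not overlap between the classes, and 7.64% were called higher and 8.94% lower with the same direction in every library, the condition for the genes named by size. Genes of the rules of either class were left out. Without the shared barcodes 879 genes were called in all, and with the 3 Cre libraries alone 630.

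Most genes of the cDC1 list were higher in cDC1 than in cDC2. Of 26 tested genes of the cDC1 list, 23 were higher and 1, Itgb7, was lower than in cDC2, against 9.58% and 9.34% of all genes, and the median log2 difference was 2.72 against 0.01 over all genes. The list was written from knowledge of this cell type, with earlier results of these data known. Because Xcr1 and Clec9a, genes of that list left out here, set the classes apart, its direction is not independent of the choice of classes. Irf8 stood at 225, 138, 68.3, 96.96 and 33.3 CPM in cDC2, against 2092 ± 364 CPM (SD, n = 5 libraries) in cDC1 (log2 difference 4.57, SE 0.40, edgeR adjusted p = 5.67e-04). Every cDC1 level of Irf8 lay above every cDC2 level. Ppt1, a lysosomal thioesterase that removes palmitate from proteins, was at 625, 934, 759.5, 1154 and 1241 CPM in cDC1 and 45.8, 57.6, 77.2, 95.6 and 97.02 CPM in cDC2 (log2 difference 3.81, SE 0.15, edgeR adjusted p = 3.21e-09). Wdfy4, a factor that cross-presentation by cDC1 requires, was at 565, 842, 714, 332 and 323 CPM and 179, 113, 154, 147 and 147 CPM (log2 difference 1.98, SE 0.27, edgeR adjusted p = 7.13e-04). Neither gene's levels overlapped between the classes. Batf3 differed less, with 79.1, 92.6, 115, 146 and 136 CPM in cDC2 (log2 difference 1.13, SE 0.17, edgeR adjusted p = 2.03e-04), and Naaa was at 375, 416, 440.1, 240.4 and 183 CPM there (log2 difference 2.61, SE 0.21, edgeR adjusted p = 1.45e-05).

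Surface and sensor genes also separated the 2 conventional classes. Tlr3, the endosomal receptor for double-stranded RNA, was at 266, 231, 219.5, 110.1 and 121 CPM in cDC1 and 0, 16.5, 2.53, 1.37 and 5.54 CPM in cDC2 (log2 difference 5.32, SE 0.39, edgeR adjusted p = 1.96e-06). Tlr11 and Tlr12, which together sense the profilin of parasites in mice, were at 23.1 to 34.5 and 39.2 to 107 CPM in cDC1 and at 2.06 to 5.06 and 0 to 5.06 CPM in cDC2 (log2 differences 3.31 and 5.21, edgeR adjusted p = 1.62e-05 and 2.93e-05). All 3 sensors were higher in cDC1 in every library, with no overlap. Cadm1, an adhesion molecule that marks cDC1 across species, was at 59.9, 98, 105, 166 and 155 CPM against 0, 14.4, 0, 1.37 and 0 CPM (log2 difference 5.39, SE 0.62, edgeR adjusted p = 5.25e-04). Cd36, a scavenger receptor for lipids and dying cells, was at 79.8, 80.7, 146, 135 and 112 CPM against 4.16, 4.12, 2.53, 2.73 and 0 CPM (log2 difference 5.52, SE 0.34, edgeR adjusted p = 1.06e-07). Btla, an inhibitory receptor of the immunoglobulin family, was at 253, 271, 245, 178 and 141 CPM against 54.1, 30.9, 11.4, 21.9 and 38.8 CPM (log2 difference 3.11, SE 0.31, edgeR adjusted p = 5.31e-05). Itgae, the integrin chain CD103, was at 239 to 706 CPM in cDC1 and 2.53 to 138 CPM in cDC2, and the adjusted p of 0.0712 missed the threshold although the levels did not overlap.

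The genes named by size included Gcsam and Snx22, which are also on the cDC1 list, and several genes outside that list. Gcsam, a signalling adaptor of germinal-centre B cells, was at 119.7, 129.7, 109, 96.2 and 125 CPM in cDC1, and the cDC2 sums held 1 UMI of it in all, so that its fitted log2 difference of 7.68 depends on the prior count. The same holds for Snx22, a sorting nexin, at 61.01 to 141 CPM in cDC1 and 1 UMI in cDC2 (fitted log2 difference 7.53). Cyp26b1, which breaks down retinoic acid, was at 659, 279.6, 392, 101 and 45.7 CPM in cDC1 and 0, 10.3, 0, 0 and 2.77 CPM in cDC2 (log2 difference 6.84, SE 0.61, edgeR adjusted p = 1.52e-04). Its level was higher in each of the 3 Cre libraries than in flfl and WT, and it was above cDC2 in all 5. Serpinb6b, an intracellular protease inhibitor, was at 233, 438, 716, 309 and 111 CPM against 16.7, 20.6, 1.26, 6.83 and 0 CPM (log2 difference 5.75, SE 0.58, edgeR adjusted p = 7.74e-04). Bcl2l14 (log2 difference 5.26), a member of the Bcl-2 family, and the sulfotransferase Sult1a1 (4.47) completed the 10 named genes, and all 10 kept their call in every alternative run.

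Genes of cDC2 and of the monocyte lineage were lower in cDC1. Of 16 tested genes of the cDC2 list, 12 were lower and none higher by edgeR (0 higher also at an unadjusted p under 0.05 and by DESeq2), with a median log2 difference of -2.71. Over all genes, 9.34% were lower and 9.58% higher. Because the cDC2 class was chosen by Cd209a, a gene of that list left out here, the direction is not independent of the choice of class. S100a4, a calcium-binding protein of motile myeloid cells, was at 46.6, 5.76, 27.7, 28.5 and 9.14 CPM in cDC1 and 2140.4, 1313, 1643, 806 and 1123 CPM in cDC2 (log2 difference -5.70, SE 0.36, edgeR adjusted p = 1.78e-05). Sirpa, the CD47 receptor that marks cDC2, was at 11.3 to 59.9 CPM in cDC1 and 117 to 267 CPM in cDC2 (log2 difference -3.04, SE 0.26, edgeR adjusted p = 2.15e-06). Neither gene overlapped between the classes. Mrc1, the mannose receptor (log2 difference -5.58), Cd7 (-5.42), the ion channel gene Tmem176b (-5.06) and the chemokine Ccl9 (-5.06) followed by size, and then Tmem176a (-4.55), Clec4a3 (-4.27), Pltp (-4.13), Ms4a4c (-4.00) and Ddr1 (-3.99). Of 7 tested macrophage genes, 4 were lower in cDC1 and none higher by edgeR (0 higher at an unadjusted p under 0.05, 1 higher by DESeq2), and of 5 monocyte genes 4 were lower, and the part of such cells or RNA in the cDC2 sums was not tested.

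Antigen presentation differed from cDC2 in parts. Of 31 tested genes of cross-presentation and MHC class I, 10 were higher in cDC1 than in cDC2 and 2 lower, with a median log2 difference of 0.09. Over all genes, 9.58% were higher and 9.34% lower. Those that were higher included parts of the immunoproteasome and of the peptide transporter. Psmb9, an immunoproteasome subunit, was at 585, 896, 773, 899 and 1038 CPM against 383, 241, 226, 328 and 394 CPM in cDC2 (log2 difference 1.61, SE 0.17, edgeR adjusted p = 1.29e-05). Psme1, a subunit of the proteasome activator, was at 985 to 1236 CPM against 457 to 675 CPM (log2 difference 1.29, SE 0.12, edgeR adjusted p = 5.02e-06). Tap2, of the transporter that carries peptides into the endoplasmic reticulum, was at 179.6 to 277 CPM against 69.6 to 131 CPM (log2 difference 1.30, SE 0.18, edgeR adjusted p = 1.24e-04). None of the 3 overlapped. The class I molecules themselves gave no call, with log2 differences of -0.01 for B2m (SE 0.12, edgeR adjusted p = 0.988) and -0.05 for H2-K1 (SE 0.13, adjusted p = 0.867). Of 13 MHC class II genes March1 and H2-Ob were higher and 4 were lower (Ctss, H2-DMb2, Lgmn and H2-Oa). Cd74, the invariant chain, differed by -0.05 (SE 0.11, edgeR adjusted p = 0.835). Ctss, the protease that cuts the invariant chain, was lower, at 435 to 845 CPM against 1676 to 2031 CPM (log2 difference -1.33, SE 0.14, edgeR adjusted p = 1.27e-05).

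Type I interferon genes were lower in cDC1 where they were called. Of 20 tested genes of the type I interferon response, 9 were lower in cDC1 than in cDC2 and none higher by edgeR (2 higher at an unadjusted p under 0.05, 0 by DESeq2), with a median log2 difference of -0.82. Over all genes, edgeR called 9.34% lower and 9.58% higher. Ifitm3, a membrane protein that restricts virus entry, was at 1869, 1343, 803, 1312 and 798 CPM in cDC1 and 3223, 2822, 3211, 3819.8 and 2281 CPM in cDC2 (log2 difference -1.22, SE 0.16, edgeR adjusted p = 1.80e-04), a call lost with the 3 Cre libraries alone. Oasl2, an antiviral protein related to the 2-5A synthetases, was at 19.96, 34.6, 5.93, 14.6 and 10.4 CPM against 129, 146, 88.5, 75.1 and 47.1 CPM (log2 difference -2.33, SE 0.26, edgeR adjusted p = 1.90e-05). Of 16 tested genes of the interferon gamma response 3 were higher, Psmb9 among them, and none lower by edgeR (3 lower at an unadjusted p under 0.05, 0 by DESeq2). Cxcl9 gave no call (119.7, 441, 463, 54.4 and 61.4 CPM against 429, 231, 11.4, 31.4 and 5.54 CPM, log2 difference 1.51, SE 1.14, edgeR adjusted p = 0.480). Cxcl16, the membrane-bound ligand of Cxcr6, was higher in cDC1 at 306, 271, 338, 229 and 317 CPM against 175, 103, 67.03, 98.3 and 91.5 CPM (log2 difference 1.69, SE 0.20, edgeR adjusted p = 2.88e-05). Havcr2, which encodes the checkpoint receptor TIM-3, was also higher, at 126, 190.2, 121, 78.2 and 60.1 CPM against 16.7, 30.9, 16.4, 25.9 and 36.04 CPM (log2 difference 2.26, SE 0.30, edgeR adjusted p = 2.10e-04), while Cd274 gave no call (log2 difference 0.47, SE 0.59, edgeR adjusted p = 0.677).

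Receptors for growth factors differed in both directions. Of 19 tested cytokine and growth factor receptor genes, 3 were higher and 8 lower in cDC1, against 9.58% and 9.34% of all genes. Their median log2 difference was -0.59. Flt3, the receptor that sustains dendritic cell production, was at 79.8, 205, 196, 137 and 158 CPM against 41.6, 16.5, 73.4, 58.7 and 72.1 CPM in cDC2 (log2 difference 1.75, SE 0.33, edgeR adjusted p = 0.00428). Csf1r, the receptor of macrophage colony-stimulating factor, was at 66.5, 8.65, 17.8, 14.6 and 11.8 CPM against 221, 142, 273, 186 and 128 CPM (log2 difference -3.21, SE 0.29, edgeR adjusted p = 4.24e-06). Ifngr1, the interferon gamma receptor chain, was lower at 166 to 316 CPM against 362 to 466 CPM (log2 difference -0.70, SE 0.14, edgeR adjusted p = 0.00217), a call lost without the library block. Cst3, the protease inhibitor cystatin C and one of the most abundant transcripts of cDC1, was at 21051 to 35158 CPM against 2686 to 9145 CPM (log2 difference 2.51, SE 0.16, edgeR adjusted p = 1.18e-06). Flt3 and Cst3 were higher and Csf1r and Ifngr1 lower in every library.

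Against migratory dendritic cells the same cDC1 differed in many more genes. Migratory cells are dendritic cells that have matured, express Ccr7 and leave the tissue for the lymph node, and they arise from both cDC1 and cDC2. Of 5874 genes tested, 1283 were higher in cDC1 (21.8%) and 1388 lower (23.6%), 20.4% were called with levels that did not overlap, and 18.9% were called higher and 20.3% lower with the same direction in every library. The cDC1 sums entered both class comparisons, so the 2 sets of differences share them, and each is given by its own values. WT held 10 migratory cells, which limits its level for rare genes.

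Most cDC1 identity genes were low in migratory cells. Of 26 tested, 23 were higher in cDC1 and 3 lower, against 21.8% and 23.6% of all genes, with a median log2 difference of 3.55. The cDC1 were chosen by Xcr1 and Clec9a of that list, so this direction is not independent of the choice of class. Naaa was at 10.6, 15.3, 14.5, 28.3 and 9.07 CPM in migratory cells, 15.5 ± 7.59 CPM (SD, n = 5 libraries) against 1736 ± 283 CPM in cDC1 (log2 difference 6.77, SE 0.18, edgeR adjusted p = 9.39e-12). Wdfy4 was at 10.6, 4.10, 9.30, 46.3 and 0 CPM (log2 difference 5.79, SE 0.74, edgeR adjusted p = 0.00145) and Itgae at 6.78, 11.7, 10.7, 7.72 and 0 CPM (log2 difference 5.88, SE 0.21, edgeR adjusted p = 1.26e-10). All 3 were higher in cDC1 in every library with no overlap. Irf8 differed by less, at 611, 1269, 818, 872 and 463 CPM in migratory cells (log2 difference 1.39, SE 0.15, edgeR adjusted p = 3.06e-06). The 3 lower genes were Id2 (log2 difference -0.76, a call lost without the library block), Batf3 (-0.58, a call lost in 5 alternatives, among them without CD4Cre, flWT_CD4Cre or flfl_CD4Cre) and Ly75 (-2.18), the endocytic receptor DEC-205, which was at 53.2, 57.6, 111, 25.9 and 20.9 CPM in cDC1 and 273, 376, 321, 126 and 90.7 CPM in migratory cells. By size the named higher genes were Cyp26b1 (7.18), Tlr3 (7.14), Naaa, Qpct (6.33), Snx22 (6.24), the creatine kinase Ckb (6.02), Itgae, Asb2 (5.88), Wdfy4 and March1 (5.77), the ubiquitin ligase that removes MHC class II from the surface.

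The maturation programme was low in cDC1. Of 26 tested genes of the maturation and migration list, 25 were lower in cDC1, against 23.6% of all genes, with a median log2 difference of -3.67 against -0.03 over all genes. Because the migratory class was chosen by Ccr7 and Fscn1, 2 genes of that list left out here, the direction is not independent of the choice of class. Cd83, a maturation marker that stabilises MHC class II, was at 53.2, 124, 81.1, 203 and 92.7 CPM against 553, 711, 775, 669 and 898 CPM (log2 difference -2.75, SE 0.23, edgeR adjusted p = 1.12e-06). Relb, a transcription factor of the non-canonical NF-kappaB pathway, was at 0, 66.3, 67.2, 22.5 and 23.5 CPM against 612, 419, 494, 471 and 699 CPM (log2 difference -3.88, SE 0.46, edgeR adjusted p = 4.86e-04). Fabp5, a fatty acid carrier outside the list, was at 6.65, 31.7, 43.5, 19.9 and 28.7 CPM against 2552, 2466, 1987, 5013 and 3919.9 CPM (log2 difference -6.91, SE 0.39, edgeR adjusted p = 6.29e-06). These 3 did not overlap. Ccl5, a chemokine for T cells, was at 6.65, 20.2, 749.6, 78.9 and 40.5 CPM in cDC1 and 5763, 5319.8, 5313, 5824 and 6515 CPM in migratory cells (log2 difference -6.14, SE 1.07, edgeR adjusted p = 0.0106), a call lost with C1q UMIs under 5 and with the 3 Cre libraries alone. The other genes named by size as lower were H2-M2 (-7.46), Tmcc3 (-6.15), Car2 (-6.11), Ramp3 (-6.05), Arap2 (-6.00), Tnfrsf4 (-5.88), Flrt3 (-5.81) and the amino acid oxidase Il4i1 (-5.69).

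**Figure D2:**
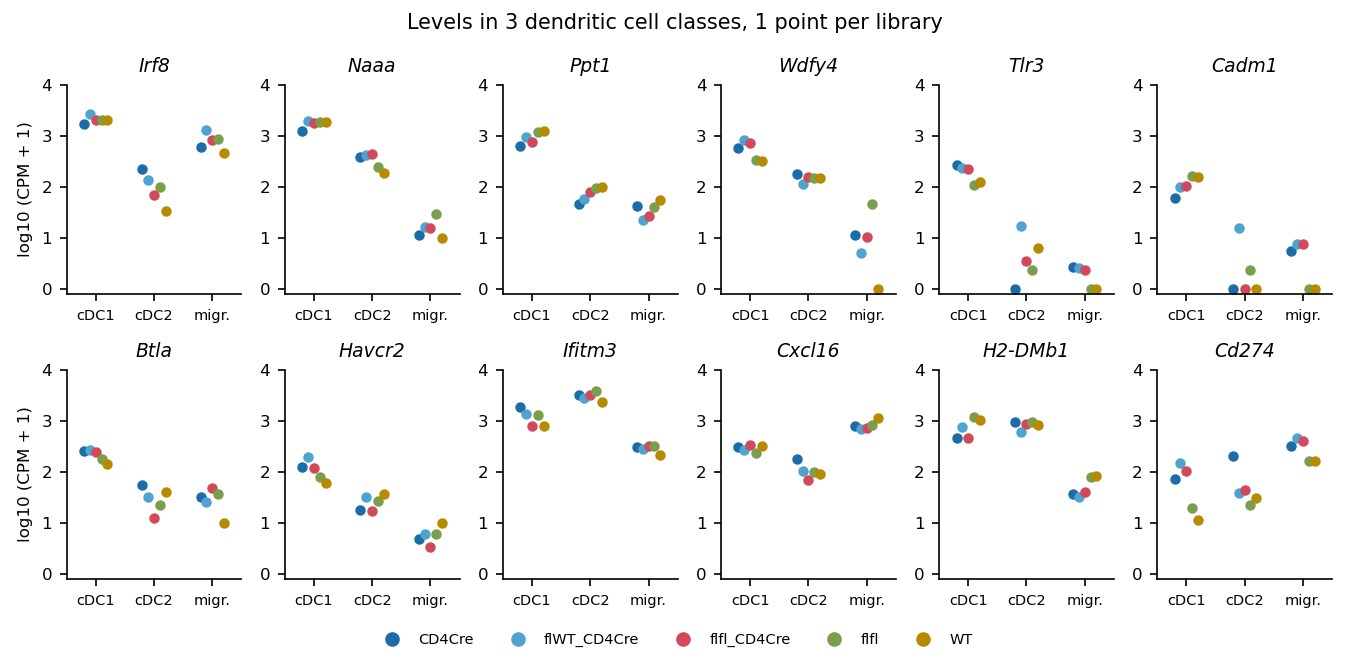
Each panel plots 1 gene as log10 of CPM + 1 in cDC1, cDC2 and migratory dendritic cells, with 1 point per library. Irf8, Naaa, Ppt1, Wdfy4, Tlr3, Cadm1, Btla and Havcr2 are highest in cDC1, Ifitm3 is highest in cDC2, and Cxcl16 is highest in migratory cells. Cd274 is highest in migratory cells within each library, while cDC1 and cDC2 overlap.

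Most MHC class II genes were higher in cDC1 than in migratory cells. Of 13 tested MHC class II genes 10 were higher and 1, the protease Lgmn, was lower, against 21.8% and 23.6% of all genes. The median log2 difference was 1.62, and without the library block 6 were higher, beside 858 of 5874 genes in all. H2-DMb1, a chain of the peptide-loading molecule H2-DM, was at 452, 767, 455, 1172 and 1015 CPM against 36.8, 31.1, 39.9, 79.8 and 81.7 CPM (log2 difference 3.85, SE 0.19, edgeR adjusted p = 2.30e-09). Its partner H2-DMa was at 692, 850.3, 530.1, 1492 and 1486 CPM against 86.4, 53.3, 95.7, 335 and 236 CPM (log2 difference 2.83, SE 0.24, edgeR adjusted p = 3.78e-06). Ciita, the transcriptional coactivator of the MHC class II genes, was at 605, 458, 445, 105 and 69.2 CPM against 60.98, 19.4, 60.6, 12.9 and 0 CPM (log2 difference 3.47, SE 0.27, edgeR adjusted p = 5.33e-07). The levels of these 3 did not overlap between the classes. H2-Ab1, a chain of the class II molecule, was at 6592, 8768, 5514, 16793 and 16921 CPM against 795, 438, 886, 3819 and 6043 CPM (log2 difference 2.69, SE 0.42, edgeR adjusted p = 0.00342), with overlap across libraries but higher in cDC1 within each.

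MHC class I ran the opposite way. Of 31 tested genes of cross-presentation and MHC class I, 16 were lower in cDC1 than in migratory cells and 8 higher, with a median log2 difference of -0.37. Over all genes, 23.6% were lower and 21.8% higher. B2m, the light chain of class I, was at 1397, 1628, 1964, 3052 and 3172 CPM against 4809, 4031, 4537, 6609 and 7631 CPM (log2 difference -1.35, SE 0.12, edgeR adjusted p = 3.97e-07). H2-K1 was at 661 to 1246 CPM against 1588 to 2917 CPM (log2 difference -1.33, SE 0.11, edgeR adjusted p = 2.50e-07). Calr, a chaperone of class I loading, was higher in cDC1, with a log2 difference of 1.55 (edgeR adjusted p = 1.79e-06). Among the Toll-like receptors and their adaptors, 5 of 8 tested genes were higher, with Unc93b1, which carries endosomal receptors to their compartment, at 281 to 443 CPM against 96.96 to 172 CPM (log2 difference 1.57, SE 0.17, edgeR adjusted p = 2.67e-06). B2m and H2-K1 were lower in cDC1 and Unc93b1 higher with no overlap.

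Checkpoint and costimulatory genes were mostly lower in cDC1. Of 15 tested, 10 were lower than in migratory cells and 3 higher, against 23.6% and 21.8% of all genes, with a median log2 difference of -1.51. Cd200, the ligand of an inhibitory receptor on myeloid cells, was at 59.9, 20.2, 65.3, 21.9 and 27.4 CPM against 426, 455, 411, 327 and 309 CPM (log2 difference -3.45, SE 0.23, edgeR adjusted p = 3.45e-08). Pdcd1lg2, which encodes PD-L2, was at 53.2, 49, 81.1, 47.1 and 16.98 CPM against 84.3, 116, 103, 216 and 172 CPM (log2 difference -1.51, SE 0.36, edgeR adjusted p = 0.00712). Havcr2 was among those higher, at 3.81, 5.19, 2.41, 5.15 and 9.07 CPM in migratory cells (log2 difference 5.04, SE 0.28, edgeR adjusted p = 8.44e-09). Cd86, a ligand of CD28, gave no call at 119.7, 149.9, 156, 149 and 157 CPM against 105, 285, 138, 304 and 136 CPM (log2 difference -0.39, SE 0.21, edgeR adjusted p = 0.149).

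Genes of chemokines and their receptors differed in both directions, with 4 of 12 tested higher in cDC1 and 6 lower, against 21.8% and 23.6% of all genes. Cxcl9, which recruits Cxcr3-bearing T cells, was higher in cDC1, with 38.1, 77.3, 49.6, 10.3 and 0 CPM in migratory cells (log2 difference 2.55, SE 0.25, edgeR adjusted p = 1.24e-06), and it was higher within each library. Cxcr3 itself was at 19.96, 28.8, 19.8, 58.4 and 83.6 CPM in cDC1 and 0.423, 0, 0.689, 0 and 0 CPM in migratory cells (log2 difference 5.90, SE 0.56, edgeR adjusted p = 1.02e-06). Cxcr3 is also a T cell gene, and its cDC1 level was highest in flfl and WT, whose kept cells held 20613 and 14265 Cd3 UMIs against 1343 to 3174 in the Cre libraries. The part of free T cell RNA in it was not tested. Cxcl16 was lower in cDC1, with 770.3, 675, 718, 824 and 1116 CPM in migratory cells (log2 difference -1.50, SE 0.14, edgeR adjusted p = 7.99e-07). Ccl22, a chemokine that draws regulatory T cells, was at 13.3, 147, 369.9, 31.2 and 97.9 CPM against 1317, 1656, 1948, 2638 and 1225 CPM (log2 difference -4.10, SE 0.74, edgeR adjusted p = 0.00883), a call lost with flfl and WT alone. Cxcl16 levels in cDC1 lay between those of the other 2 dendritic classes.

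Cell cycle genes were higher in cDC1 than in migratory cells. Of 19 tested, 16 were higher and 1 lower, against 21.8% and 23.6% of all genes, with a median log2 difference of 2.75. Rrm2, the ribonucleotide reductase subunit made in S phase, was at 46.6, 23.1, 160.2, 30.5 and 87.5 CPM against 1.69, 1.09, 0.344, 5.15 and 0 CPM (log2 difference 5.59, SE 0.59, edgeR adjusted p = 7.36e-06). Pclaf, a partner of the replication clamp, was at 99.8, 107, 411, 57.7 and 282 CPM against 5.51, 4.37, 1.03, 18.01 and 0 CPM (log2 difference 5.15, SE 0.87, edgeR adjusted p = 0.00473). Neither overlapped. Without the shared barcodes, 11 genes of the list could be tested, and 7 were higher and 1 lower (median 1.03). Over all genes, 1013 of 5481 were then higher and 1299 lower. Against cDC2 edgeR called none of 18 genes after adjustment, and 4 were higher at an unadjusted p under 0.05. DESeq2 called 5 higher than in cDC2, beside 391 higher of 5300 genes in all. With flfl and WT alone edgeR called 12 of 23 higher than in cDC2 and 2 lower, beside 470 and 486 of 6031 genes in all.

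Metabolic and stress genes were mixed. Of 16 glycolysis and hypoxia genes 8 were higher than in migratory cells and 2 lower, with Ldha, lactate dehydrogenase, at 838, 801, 884, 1324 and 1201 CPM against 135, 301, 220.3, 489 and 608 CPM (log2 difference 1.67, SE 0.18, edgeR adjusted p = 7.31e-06). Of 12 tested stress genes, most of them of the unfolded protein response, 6 were higher and 4 lower. Sdf2l1, an endoplasmic reticulum chaperone, was at 146, 196, 164, 241 and 294 CPM against 22.02, 19.7, 19.97, 33.5 and 36.3 CPM (log2 difference 2.97, SE 0.18, edgeR adjusted p = 1.32e-08). Of 18 genes of the interferon gamma response 6 were higher and 9 lower, and of 19 genes of the type I response 4 were higher and 6 lower, Ifitm3 being higher at 301, 279.7, 322, 319 and 209 CPM in migratory cells (log2 difference 2.02, SE 0.17, edgeR adjusted p = 3.65e-07). The shares over all genes, to set beside each of these counts, were 21.8% higher and 23.6% lower.

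**Figure D3:**
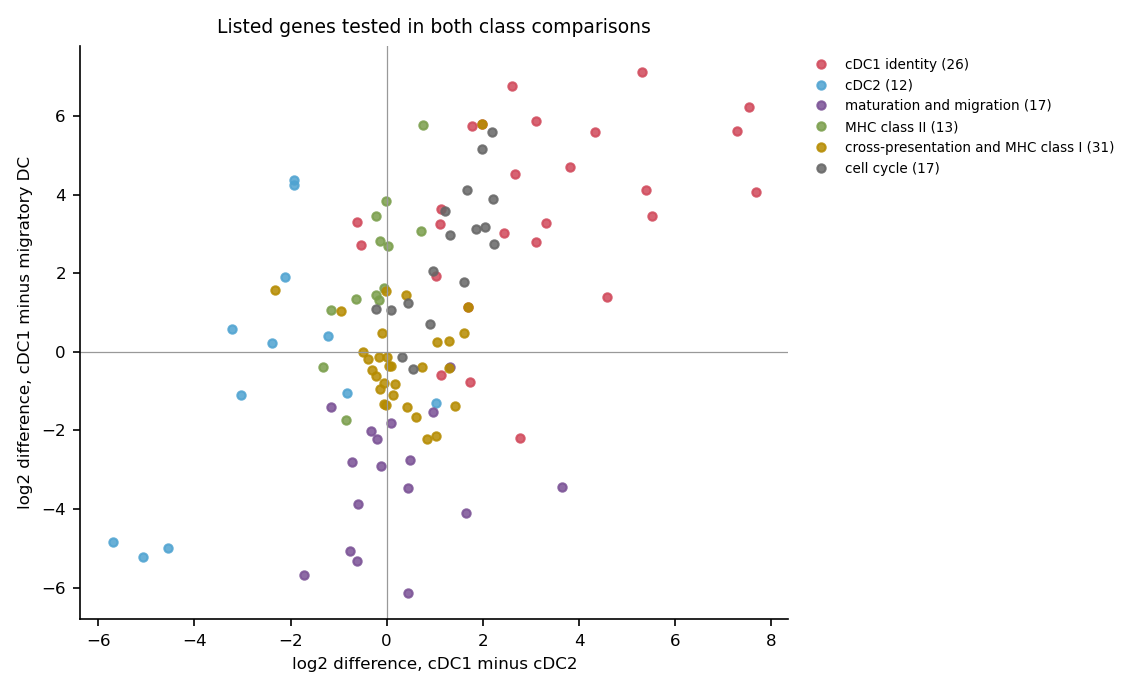
Each point is a listed gene tested in both comparisons, with the log2 difference of cDC1 minus cDC2 on the x axis and of cDC1 minus migratory cells on the y axis, and colours give its list. The 2 axes share the cDC1 sums. The 26 cDC1 identity genes lie mostly at upper right, the cDC2 genes at left, the maturation genes low and near 0 on the x axis, and the MHC class II genes high and near 0 on the x axis.

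Between genotypes, Cd274 is the gene the study set out to remove, from T cells and not from dendritic cells. In T cells (at least 2 Cd3 UMIs, no Cd79a or C1q UMI) it was at 65.9 CPM in CD4Cre (exact 95% Poisson interval 38.4 to 105, 42 cells), 38.1 in flWT_CD4Cre (21.8 to 61.9, 40 cells), 92.2 in flfl_CD4Cre (55.5 to 144, 32 cells) and 12.9 in flfl (3.53 to 33.1, 46 cells). In WT it had no UMI in 7 cells (interval 0 to 86.3). The intervals of CD4Cre and of the library labelled flfl_CD4Cre overlapped. The sources used here give neither the floxed exons nor the end of the transcript that the UMIs read, so these UMIs check neither the deletion nor the labels. The no-C1q condition leaves out T cells that hold a free C1q UMI, and B cells held one most often in flfl and WT.

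In cDC1, Cd274 was at 73.2 CPM (36.5 to 131, 11 UMIs) in CD4Cre, 147 CPM (109 to 193, 51 UMIs) in flWT_CD4Cre, 105 CPM (78.5 to 137, 53 UMIs) in flfl_CD4Cre, 18.6 CPM (12.3 to 26.8, 28 UMIs) in flfl and 10.4 CPM (4.51 to 20.6, 8 UMIs) in WT. The intervals of the 3 Cre libraries overlapped each other, and flfl and WT lay below all 3. The ratio of flfl_CD4Cre to CD4Cre was 1.43 (0.740 to 3.04) and included 1. Migratory cells had 322, 457, 404, 159.6 and 163 CPM and C1q macrophages 203, 176, 129.8, 43.8 and 31.7 CPM, so those classes were lower in flfl and WT as well. cDC2 had 199.9, 37.1, 43, 21.9 and 30.5 CPM, with only CD4Cre high. Cd274 was lower in cDC1 than in migratory cells in each library (log2 difference -2.37, SE 0.25, edgeR adjusted p = 5.06e-06). Without the shared barcodes it was at 68.2 CPM in CD4Cre and 81.0 CPM in flfl_CD4Cre.

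Other ligands that T cells read differed less evenly. Cd80, which binds the costimulatory receptor CD28, was at 13.3 CPM (1.61 to 48.1, 2 UMIs) in CD4Cre, 40.4 CPM (22.1 to 67.7, 14 UMIs) in flWT_CD4Cre, 85.05 CPM (61.6 to 115, 43 UMIs) in flfl_CD4Cre, 7.96 CPM (4.11 to 13.9, 12 UMIs) in flfl and 7.83 CPM (2.88 to 17.1, 6 UMIs) in WT. It was highest in flfl_CD4Cre, with an interval that met only that of flWT_CD4Cre. With shared barcodes left out, Cd80 had no UMI in CD4Cre and 49.5 CPM in flfl_CD4Cre. Pdcd1lg2 ran from 16.98 CPM in WT to 81.1 CPM in flfl_CD4Cre, and Cd86 from 119.7 to 157 CPM, with all 5 Cd86 intervals overlapping. Cxcl9 was at 119.7 CPM (70.96 to 189, 18 UMIs) in CD4Cre, 441 CPM (374 to 517, 153 UMIs) in flWT_CD4Cre, 463 CPM (405 to 526, 234 UMIs) in flfl_CD4Cre, 54.4 CPM (43.2 to 67.5, 82 UMIs) in flfl and 61.4 CPM (45.1 to 81.6, 47 UMIs) in WT. Cxcl9 was thus high in both libraries with a floxed allele and Cre and lower in the other 3, and it was found in 6, 8, 12, 20 and 13 cells. The cell with most Cxcl9 held 50%, 36.6%, 38.5%, 17.1% and 34.0% of each library's UMIs of it.

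Over all genes, cDC1 of flfl_CD4Cre had fewer genes past the limits below against the other Cre libraries than against flfl and WT. A gene was counted when its level was at least 50 CPM on the higher side, the ratio was at least 2 and the Poisson intervals did not overlap, a count with no test behind it. Against CD4Cre, 108 of 3369 genes were higher in flfl_CD4Cre (3.21%) and 87 lower (2.58%). Against flWT_CD4Cre 123 of 3208 were higher (3.83%) and 86 lower (2.68%). Against flfl 1062 of 3213 were higher (33.1%) and 246 lower (7.66%), and against WT 970 of 3287 were higher (29.5%) and 267 lower (8.12%). The median log2 ratio over the genes tested was -0.011 against CD4Cre, 0.007 against flWT_CD4Cre, 0.319 against flfl and 0.272 against WT. The levels in these counts were not scaled for that shift. Poisson intervals narrow as UMIs rise, so the counts also depend on the unequal UMI sums of the libraries. The pair flWT_CD4Cre and CD4Cre, which share the Cre, gave 95 of 3301 higher (2.88%) and 125 lower (3.79%), and flfl against WT gave 53 of 2404 higher (2.2%) and 58 lower (2.41%). The counts of the pair flfl_CD4Cre and CD4Cre were therefore close to those of the other pairs with the same header, and the large counts all crossed the 2 header sets. The count of 195 for that pair became 110 without shared barcodes, of which 45 were in the 195, and 16 after thinning.

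Of the genes past these limits between flfl_CD4Cre and CD4Cre, 79 higher (2.34%) and 29 lower (0.861%) also lay outside the levels of all 4 other libraries. The 10 largest higher genes were Ccl5, Ccl22, Tmem123, Samsn1, Secisbp2l, Iigp1, Mxd1, Orc6, Cblb and Nop14. Of these CD4Cre held 2 UMIs of Ccl22 and 1 UMI of each of the others, so their ratios are wide. Ccl5 was at 6.65, 20.2, 749.6, 78.9 and 40.5 CPM, a ratio of 113 (20.1 to 4463) to CD4Cre, and at 486 CPM in flfl_CD4Cre without the shared barcodes. It was found in 1, 5, 5, 60 and 24 cells, so the high level of flfl_CD4Cre came from few cells while in flfl 119 UMIs were spread over 60 cells. Ccl22 was at 13.3, 147, 369.9, 31.2 and 97.9 CPM, a ratio of 27.8 (7.59 to 231). Tmem123, a membrane mucin of the maturation list, was at 6.65, 31.7, 142, 30.5 and 36.6 CPM, a ratio of 21.4 (3.72 to 857). In flWT_CD4Cre and WT a single cell held 92.2% and 89.3% of the Ccl22 UMIs. Iigp1, an interferon-inducible GTPase, was at 6.65, 49, 77.1, 11.3 and 11.8 CPM, from 4 cells in flfl_CD4Cre, and was at 13.5 CPM there without the shared barcodes. Cblb, a ubiquitin ligase that restrains immune receptor signals, was at 6.65, 11.5, 67.2, 13.3 and 13.1 CPM, and Nop14, a ribosome assembly factor, at 6.65, 60.5, 63.3, 29.8 and 30.03 CPM, close to flWT_CD4Cre.

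A pair of cells held most of the flfl_CD4Cre UMIs of 5 of these 10 genes (Ccl5, Tmem123, Samsn1, Mxd1 and Cblb). In flfl_CD4Cre 2 members held 21.0 and 19.9 UMIs of the maturation and migration list per 1000, against at most 1.80, 5.63, 3.84 and 5.54 in the other 4 libraries. The first, with 13839 UMIs, held 106 UMIs of Ccl5, 20 of Fscn1, 21 of Il12b, 7 of Cd80 and 5 of Cd274, with 3 of Clec9a, none of Xcr1, 21 of Irf8 and none of Naaa or Wdfy4. The second, with 32837 UMIs and a barcode also found in another library, held 270 of Ccl5, 59 of Ccl22, 110 of Fscn1, 12 of Cd80 and 17 of Cd274, with 2 of Clec9a, none of Xcr1, 45 of Irf8 and none of Naaa or Wdfy4. Neither held a UMI of Ccr7, which is why the rule kept them, and their high Ccl5 and Fscn1 beside absent Naaa and Wdfy4 matched the order of the migratory class in those genes.

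The levels of flfl_CD4Cre were recomputed without those 2 cells, a step chosen after they were seen. They held 99.2% of the library's Ccl5 UMIs, and Ccl5 went from 749.6 to 6.54 CPM, the level of CD4Cre. Il12b, a subunit of IL-12, went from 45.5 to 4.36 CPM, Samsn1 from 85.1 to 24.0 CPM and Tmem123 from 142 to 58.8 CPM. Cd80 went from 85.1 to 52.3 CPM and Cd274 from 105 to 67.6 CPM. Ccl22 was then at 266 CPM, while 45.5% of its UMIs in the library had lain in 1 cell. When shared barcodes were left out instead, Ccl22 was at 162 CPM in flfl_CD4Cre and 161 CPM in flWT_CD4Cre. Cxcl9, absent from both cells, went to 509.9 CPM, Naaa to 1968 CPM and Irf8 to 2088 CPM. The count of genes past the limits became 156, of which 139 were among the 195. On the maturation list, 11 of 17 genes tested were higher in flfl_CD4Cre than in CD4Cre with all members, against 3.21% of all genes. Without the 2 cells, which were picked by that list, 2 of 10 were higher, beside 75 genes higher in all.

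Of the genes lower in flfl_CD4Cre than in all other libraries, Ccl4 had the largest ratio. Ccl4, a chemokine gene, was at 126, 51.9, 3.96, 172 and 36.6 CPM, 31.9 times lower in flfl_CD4Cre than in CD4Cre (7.71 to 283). It was found in 3, 4, 2, 55 and 21 cells. Irf7, which drives type I interferon production, was at 79.8, 54.8, 7.91, 59.02 and 79.7 CPM, 10.1 times lower (3.06 to 42.9). Slfn1, a Schlafen gene, was at 99.8, 60.5, 7.91, 18.6 and 18.3 CPM, 12.6 times lower (4.02 to 52.2). Irf7 was spread over 6 cells in CD4Cre, 8 in flWT_CD4Cre, 29 in flfl and 15 in WT, and over 4 in flfl_CD4Cre. Leaving out shared barcodes, Irf7 was at 40.9 CPM in CD4Cre (3 UMIs) and 9.00 CPM in flfl_CD4Cre (2 UMIs), Slfn1 at 123 CPM (9 UMIs) and 4.50 CPM (1 UMI), and Ccl4 at 95.5 CPM (7 UMIs) and 4.50 CPM (1 UMI). Lyz2 was at 1071, 553, 192, 497 and 533 CPM and Arg1, the arginase of myeloid cells, at 126, 17.3, 9.89, 19.2 and 16.98 CPM, but 1 cell held 90.7% of the Lyz2 and 89.5% of the Arg1 UMIs of CD4Cre, and all 8 UMIs of the metal transporter Slc11a1 there lay in 1 cell. Without the shared barcodes CD4Cre held 95.5 CPM of Lyz2 and 13.6 CPM of Arg1, and flfl_CD4Cre 324 and 18.0 CPM, so both directions reversed. The other genes in this set were Maf, Rnd3, Pilra and Ifi203, with 8 to 10 UMIs each in CD4Cre. The cell with most of each gene held 87.5%, 70%, 87.5% and 77.8% of these. Without the shared barcodes CD4Cre held no UMI of Pilra or Slc11a1. In flfl_CD4Cre they were then at 18.0 CPM (4 UMIs) and 9.00 CPM (2 UMIs), too few for a ratio. Of 14 type I interferon genes tested between the 2 libraries, 5 were lower in flfl_CD4Cre and none higher by these limits, against 2.58% and 3.21% of all genes. With shared barcodes left out 1 of 12 was lower, beside 39 genes lower in all. With Cd3 and Cd79a UMIs under 3, 15 of 22 were lower, beside 106 genes lower in all. That looser limit took the members of CD4Cre from 14 to 16 and left those of flfl_CD4Cre at 23. Under the rule as stated, 4 of 13 type I interferon genes were lower and none higher against flWT_CD4Cre, beside 2.68% and 3.83% of all genes. Against flfl 2 of 10 were lower and 3 higher, beside 7.66% and 33.1% of all genes. Against WT 2 of 11 were lower and 3 higher, beside 8.12% and 29.5% of all genes.

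**Figure D4:**
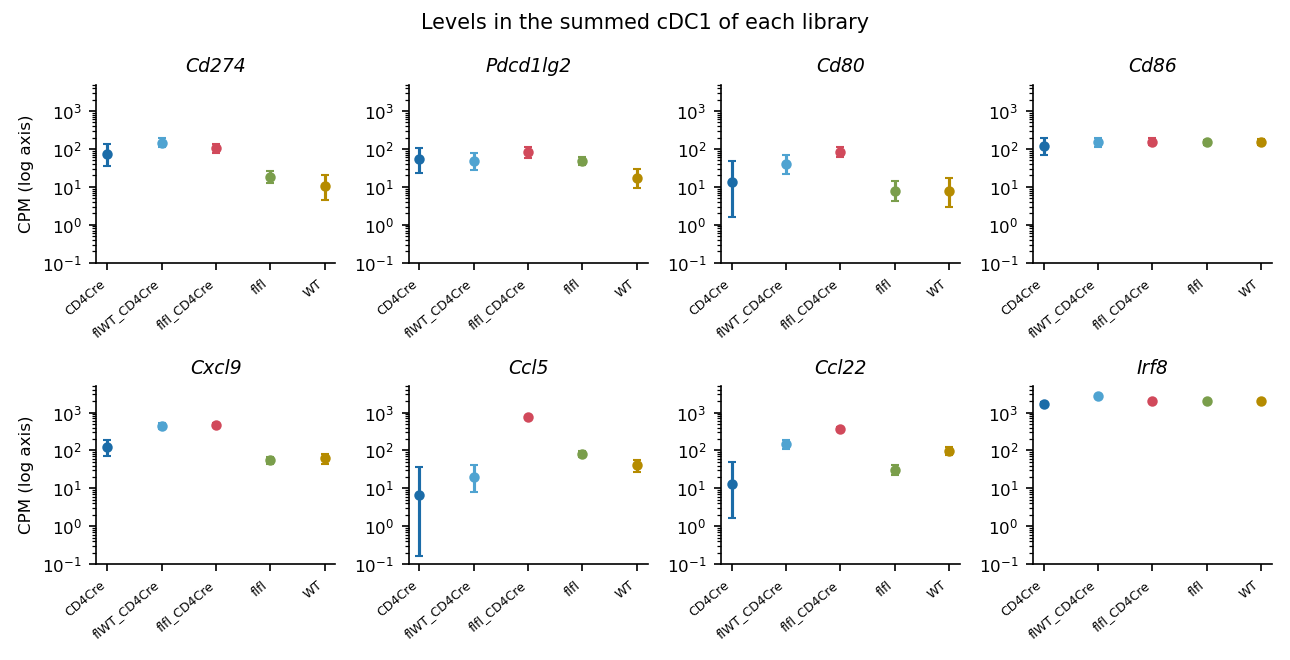
Each panel plots the CPM of 1 gene in the summed cDC1 of each library on a log axis, with exact 95% Poisson intervals for counting error. Cd274 is lower in flfl and WT than in the Cre libraries, Ccl5 is highest in flfl_CD4Cre at 749.6 CPM, the Cd86 intervals all overlap, and Irf8 is highest in flWT_CD4Cre with an interval apart from the other 4. Of the Ccl5 UMIs of flfl_CD4Cre, 99.2% lay in 2 cells.

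MHC class II genes were higher in the cDC1 of flfl and WT than in those of the Cre libraries. The list summed to 32475, 42559.9, 28978, 81273 and 79879 CPM in cDC1. Per cell, the median was 30.3, 37.6, 31.8, 80.5 and 81.1 UMIs per 1000, with ranges of 15.9 to 62.5, 12.1 to 77.7, 5.56 to 71.9, 38.5 to 150.5 and 27.0 to 124. Cells of flfl and WT were higher at the median and overlapped the Cre libraries at their lower ends. Cd74 was at 14581, 18458, 12833, 39909 and 37797 CPM in cDC1, 19172, 15423, 18381, 44742 and 45152 CPM in cDC2 and 3872, 2782, 4611, 16758 and 20534 CPM in migratory cells, so the same 2 libraries were highest in all 3 classes. Of 12 class II genes tested between flfl_CD4Cre and flfl, 8 were lower and 2 higher in flfl_CD4Cre, against 7.66% and 33.1% of all genes. None of 12 passed the limits against CD4Cre. Ciita went the other way, at 605, 458, 445, 105 and 69.2 CPM, highest in CD4Cre and lowest in WT. Depth, file version and free RNA differ between the same sets of libraries, and their part in these levels was not tested.

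Cells rich in cell cycle genes were present in every library. Those with at least 10 cell cycle UMIs per 1000 numbered 1 of 14, 4 of 20, 4 of 23, 4 of 78 and 7 of 42, and the median cell held 1.06, 0.832, 1.18, 0.843 and 0.982 per 1000. After thinning to 2000 UMIs, 10 or more cell cycle UMIs were found in 3 of 11 cells (27.3%, 6.02 to 61.0), 4 of 19 (21.1%, 6.05 to 45.6), 6 of 23 (26.1%, 10.2 to 48.4), 7 of 78 (8.97%, 3.68 to 17.6) and 11 of 42 (26.2%, 13.9 to 42.04). The lowest share was in flfl, and its interval overlapped all others. Under the same thinning, migratory cells reached that count in 2 of 214, 0 of 267, 1 of 205, 2 of 29 and 0 of 10 cells, and cDC2 in 0 of 19, 3 of 23, 1 of 47, 4 of 61 and 5 of 30. In CD4Cre 60.2% of the cell cycle UMIs lay in 1 cell. Immediate early and heat shock genes, which can respond to tissue dissociation, had medians of 1.23, 3.45, 1.93, 5.40 and 2.05 UMIs per 1000, highest in flfl.

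**Figure D5:**
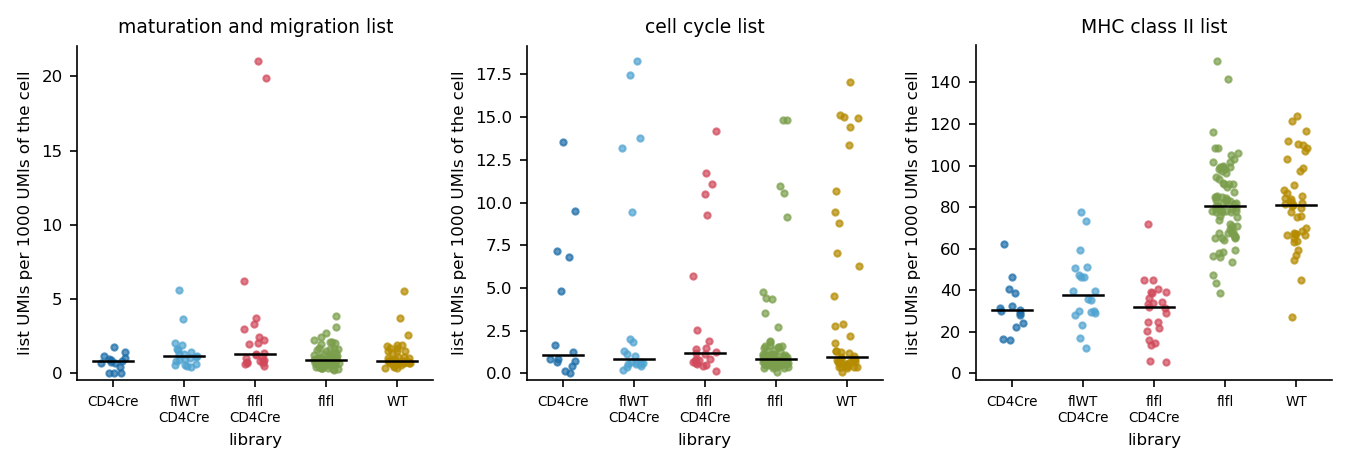
Each point is a cDC1, plotted by library against its UMIs of the maturation and migration list, the cell cycle list and the MHC class II list per 1000 UMIs of the cell, and the black line is the median. In flfl_CD4Cre 2 cells stand near 20 on the maturation list, 1 to 7 cells of each library pass 10 on the cell cycle list, and the MHC class II medians of flfl and WT, 80.5 and 81.1, lie above those of the Cre libraries.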

How the data were processed

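RNA of CD45+ leukocytes from mouse pancreatic tumours was measured in 5 single-cell libraries, 1 per genotype, and the authors' deposited matrices hold raw UMI counts per gene and barcode. The headers of 3 of them name Cell Ranger 3.1.0, per the file headers, and the submitters' processing notes name mm10, Cell Ranger and other tools without giving their order. File names disagree with the labels for flWT_CD4Cre and WT, and the labels were used. The rule for members was applied to the deposited counts, and no doublet caller was run. Members above the 95th percentile of UMIs were left out as an alternative.

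UMI counts were summed per library and class and tested with edgeR 4.0.16 (quasi-likelihood test, TMM, filterByExpr, library as a block, Benjamini-Hochberg adjustment) in R 4.3.3, with DESeq2 1.42.0 as an alternative. Classes with fewer than 10 cells in a library would drop it, and none did in the main fits. Python 3.11.15, scipy 1.17.1 and pandas 2.3.3 gave the levels, with exact 95% Poisson and Clopper-Pearson intervals that cover counting error only. Nothing in the labels says that libraries pool or separate animals. With the library as a block, p-values measure how the class difference within a library varies over these 5 libraries. They do not measure differences in level between libraries. On simulated counts, 41% of 100 genes changed 2-fold and 99% of 100 changed 4-fold were called against cDC2, with 4 false calls among 5042 genes, and 40% and 99% against migratory cells, with 8 among 5671. The simulated libraries shared 1 profile and 1 fixed dispersion, with no difference between libraries, and the changed genes had counts above the median. The real libraries differed, so these rates are not the error rates of the real fits.

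Named genes were the 10 largest differences each way among genes called in the same direction in every library with at least 100 CPM in the higher class, the 10 largest ratios each way between flfl_CD4Cre and CD4Cre outside all 4 other libraries, 11 fixed genes, and up to 5 members of each of 26 lists with the highest mean in cDC1. Other list members were named after their values were seen. The members and lists were chosen with earlier results of these data known. The alternatives were another tool and normalization, no filter, no block, each library left out, other limits on genes, mitochondrial share, Xcr1 and Clec9a, C1q and shared barcodes, thinning to 2000 UMIs, means over cells and TMM-scaled levels.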

Additional observations from a re-analysis of the deposited data

How the results depend on the processing

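No paired analysis was possible between genotypes because each genotype is 1 single-cell library, and the shared replicate numbers beyond 1 belong to bulk libraries. The 2 class comparisons were paired within each library, through the library block. The cDC1 share moved beyond its counting interval to 0.118% in CD4Cre and 1.82% in flfl with cells thinned to 2000 UMIs, to 1.47% in flfl and 0.279% in WT with C1q UMIs under 5, and to 5.49% in flfl and 2.62% in WT with Cd3 and Cd79a UMIs under 3. Calls against cDC2, 1003 as reported, numbered 1691 with no filter on low counts (14495 genes tested), 414 with no library block, 630 with the 3 libraries of the 3.1.0 header and 141 after thinning (653 genes tested). They ranged from 680 to 1024 with 1 library left out. Calls against migratory cells, 2671 as reported, numbered 425 after thinning (889 genes tested) and ranged from 2157 to 2840 with 1 library left out. Genes past the fold between flfl_CD4Cre and CD4Cre, 195 as reported, numbered 565 with means over cells, 16 after thinning and 110 without shared barcodes. Apart from the changed numbers of genes tested, the cause was not tested.

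Some log2 values changed sign. The ratio of flfl_CD4Cre to CD4Cre became 0.40 for Arg1 and 1.76 for Lyz2 without shared barcodes, and 0.43 for Lyz2 without its own top cell. The difference from migratory cells became -0.18 for Slc2a1 with flfl and WT alone and -0.21 for Spp1 with C1q UMIs under 5. The 20 genes named by size against cDC2 kept their call in all 297 alternatives run, and those against migratory cells in 307 of 309. Leaving out shared barcodes in the class comparisons, the split by header, the looser Cd3 and Cd79a limits, the omission of the 2 members rich in maturation UMIs and of single top cells were chosen after seeing the data. Depth limits CD4Cre most, with 150333 cDC1 UMIs.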
